A study of Homo sapiens with 6 samples.

Results

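Superoxide dismutases, catalase and peroxiredoxins are the enzymes that remove superoxide and hydrogen peroxide from a cell. They were described here by 10 genes, SOD1, SOD2, SOD3, CAT and PRDX1 to PRDX6, out of 23180 gene symbols in the data, and the most heavily counted transcript stood for each gene. The members were listed by gene name, but with earlier results of these data known. SOD2 was also among the genes that the study measured by qRT-PCR, and its methods list a SOD2 antibody for western blots. The study showed RNA-Seq and mass spectrometry data for the targets that it measured in these ways. RNA-Seq had been performed on A549 cells, a human lung adenocarcinoma line labelled genotype WT at passage 11, harvested 3 days after transfection with a control siRNA (siControl, 3 biological replicates) or with an siRNA against KMT9α (siKMT9α, siKMT9α#1 in the study's methods, 3 biological replicates). KMT9 is a histone methyltransferase made of KMT9α, encoded by N6AMT1, and KMT9β, encoded by TRMT112. All 6 samples were transfected cells of 1 line, and an untransfected sample or a second siRNA against KMT9α was not analysed here.

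Superoxide dismutases convert superoxide into hydrogen peroxide and oxygen. SOD1 is the copper and zinc enzyme of the cytosol, SOD2 the manganese enzyme of the mitochondrial matrix, and SOD3 the secreted enzyme. Catalase, a heme enzyme of peroxisomes, splits hydrogen peroxide into water and oxygen. Peroxiredoxins reduce peroxides with a cysteine that is then reset, in most members by thioredoxin, and they work in the cytosol (PRDX1, PRDX2, PRDX6), in mitochondria (PRDX3, PRDX5) and in the endoplasmic reticulum (PRDX4). PRDX5 is also found in peroxisomes and the cytosol.

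In siKMT9α cells, SOD2 rose 1.67-fold while SOD1 fell to 0.653 of its siControl level, and catalase mRNA fell to 0.393. Among the peroxiredoxins, PRDX4 rose 1.30-fold, PRDX5 fell to 0.540, and PRDX1 and PRDX6 fell to 0.925 and 0.908, both changes that did not hold under every setting. PRDX3 did not pass the test, and SOD3 and PRDX2 were at or near 0 counts in all 6 samples. At an adjusted p under 0.05 (edgeR quasi-likelihood test, Benjamini-Hochberg adjustment over 13877 genes tested), 2 of the 8 members tested rose and 5 fell, which is 87.5%, against 75.6% of all genes tested (37.1% higher and 38.5% lower). Because most genes of these cells passed that test, the share of members called lies near the background. The study's methods name a stricter threshold, p under 1e-08 with a log2 fold change beyond 0.26 in either direction. At it, 1 member rose (SOD2) and 3 fell (CAT, PRDX5 and SOD1), which is 4 of the 8 tested. Of all genes, 24.2% passed it (13.5% higher and 10.7% lower). SOD1 did not pass it with a replicate block or without siKMT9α replicate 2. With edgeR's likelihood ratio test in place of the quasi-likelihood test, PRDX4 passed it as higher, and 5962 genes did, against 3357. The study's methods name edgeR but not which of its tests was used. The 3 siControl and 3 siKMT9α values of a gene did not overlap for 7 of the 8 members (2 higher, 5 lower), and for 77.0% of all genes tested (37.6% higher, 39.4% lower). The median log2 fold change was -0.13 over the 8 members and -0.01 over all genes tested, and the median size of change was 0.50 and 0.47. In these bulk samples, fewer cells of a kind and less RNA per cell cannot be told apart.

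Each sample held 13740097 to 19832395.5 counts over 1 transcript per gene. The targeted gene N6AMT1 was at 10.2, 10.9 and 11.4 CPM (counts scaled by library size and TMM factors) in the 3 siControl samples and at 2.87, 3.22 and 3.35 CPM in the 3 siKMT9α samples, which is a change of -1.77 ± 0.12 (log2, standard error). TRMT112 was lower as well, with 173.8 ± 11.5 against 133.7 ± 13.4 CPM (SD, n = 3 each) and a log2 fold change of -0.38 that was -0.24 with GC and length offsets, which take out trends of the counts with GC content and transcript length. All 6 epithelial markers checked reached 1 CPM in at least 1 sample, and their summed level was 4402 to 4886 CPM in siControl and 2943 to 3130 in siKMT9α. EPCAM had a mean of 3.85 CPM in siControl and 0.57 in siKMT9α, and KRT19 had 57.6 and 35.9. The mean level of KRT8 was 1281 CPM in siControl and 528 in siKMT9α, that of KRT18 was 2041 and 1210, that of KRT7 was 1260 and 1269, and that of CDH1 was 3.38 and 8.60. Leukocyte markers reached 1 CPM for 1 of 4 (CD14, with CD3E at 0), endothelial markers for 0 of 3, and fibroblast markers for 2 of 4 (with COL1A2 at 0). The part of the lower epithelial sum in the results was not tested.

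SOD2 (NM_000636, chr6:160102755-160114353 of hg19, minus strand) was at 92.5, 101.8 and 97.5 CPM in the siControl samples and at 166.3, 166.6 and 155.6 CPM in the siKMT9α samples. Every siKMT9α sample lay above every siControl sample, and the samples within a group lay close together. The group means were 97.2 ± 4.64 and 162.8 ± 6.28 CPM (SD, n = 3 each). On the log2 scale SOD2 rose by 0.74 with a standard error of 0.05 and an adjusted p of 1.10e-10 (edgeR). A change at least as large was measured for 31.5% of all genes tested.

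The table lists 3 transcripts of SOD2. NM_000636, with 1584 bases, had 1742.5, 1647.5 and 1875 counts in siControl and 2199.5, 2280 and 2974 in siKMT9α. NM_001024465 (chr6:160100149-160114353, 1013 bases) had 1323, 1211.5 and 1380.5 counts in siControl and 1645.5, 1685 and 2137 in siKMT9α. NM_001024466, of the same span and 898 bases, had 1151.5, 1050.5 and 1201 counts in siControl and 1441, 1454.5 and 1872.5 in siKMT9α. In a fit over 24770 transcripts, the log2 fold changes were 0.74, 0.73 and 0.73, each with a standard error of 0.05. These transcripts share exons and hence reads, so the 3 values are not independent, and a difference between them was not tested. With 1 sample left out at a time, the 3 values stayed between 0.70 and 0.78.

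SOD1 (NM_000454, chr21:33031935-33041243, plus strand) moved the opposite way. It was at 122.3, 126.0 and 126.3 CPM in siControl and at 85.8, 81.3 and 78.0 CPM in siKMT9α. The groups did not overlap, and the fall from 124.9 ± 2.21 to 81.7 ± 3.91 CPM (SD, n = 3 each) gave a log2 fold change of -0.61 with a standard error of 0.05 and an edgeR adjusted p of 1.35e-09.

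Within each sample, the 2 intracellular dismutases changed order. Per kilobase of transcript, the ratio of SOD2 to SOD1 was 0.456, 0.488 and 0.466 in the siControl samples and 1.17, 1.24 and 1.20 in the siKMT9α samples. The cytosolic enzyme's mRNA was thus the more abundant of the pair in all 3 siControl samples and the mitochondrial enzyme's mRNA in all 3 siKMT9α samples. The mean ratio was 0.470 ± 0.016 against 1.20 ± 0.034 (SD, n = 3 each), and the two-sided exact permutation test gave p = 0.1, the smallest that 3 against 3 samples allow. Since both values of a ratio come from 1 library, library scaling cancels out of it, and with fold changes fitted with GC and length offsets the siKMT9α ratio was 1.17. SOD3, the secreted enzyme (NM_003102, chr4:24797085-24802467, plus strand), had 0 counts in all 6 samples, and 3 counts, the limit that a count of 0 allows, would have been 0.218 CPM in the shallowest sample and 0.151 in the deepest, for counting error only.

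**Figure D1:**
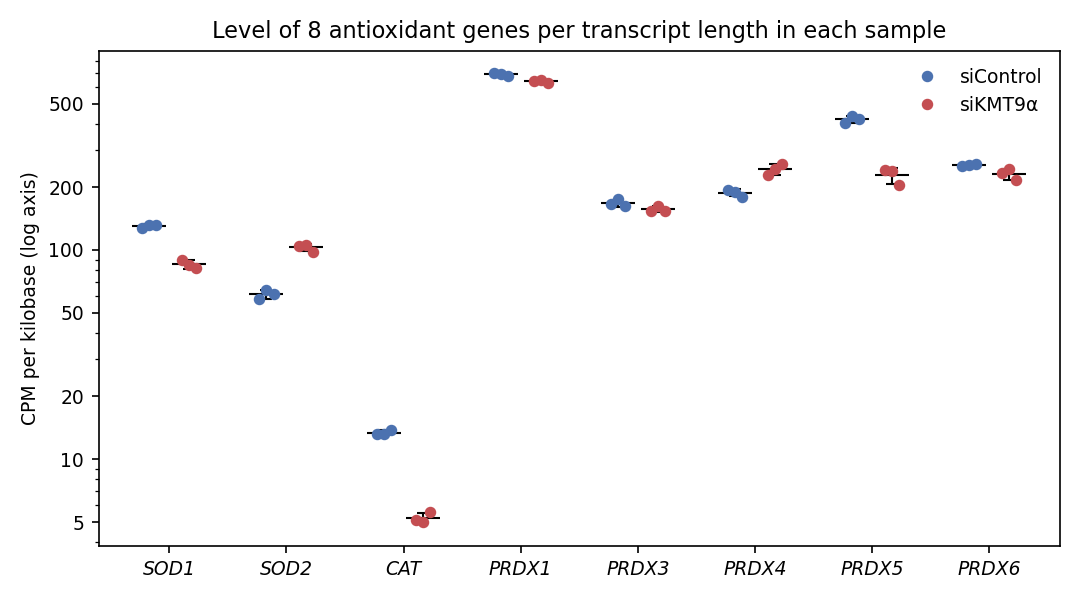
Level of each of the 8 tested genes in CPM per kilobase of transcript (log axis), with 1 point per sample and a black bar at the mean with its SD (n = 3 each), siControl in blue and siKMT9α in red. CAT is the lowest in both groups, SOD1 and SOD2 change places between the groups, and PRDX4, PRDX5 and PRDX6 lie together in siKMT9α.

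Catalase had the largest change among the members. CAT (NM_001752, chr11:34460472-34493607, plus strand) was at 30.1, 30.0 and 31.3 CPM in siControl and at 11.6, 11.4 and 12.7 CPM in siKMT9α. All 3 siKMT9α samples were below every siControl sample, and the samples within each group lay close together. The mean was 30.5 ± 0.76 CPM in siControl and 11.9 ± 0.67 in siKMT9α (SD, n = 3 each). The log2 fold change of CAT was -1.35 with a standard error of 0.08 and an edgeR adjusted p of 5.60e-12, and 11.4% of all genes tested changed at least as much. Per kilobase, the ratio of CAT to PRDX1 went from 0.0194 ± 0.0007 to 0.0082 ± 0.0006 (SD, n = 3 each).

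Catalase reaches its place through the peroxisome import machinery, so the 16 peroxisome biogenesis genes were read beside it. All 16 were tested, of which 3 rose (18.8%, against 37.1% of all genes tested), 10 fell (62.5%, against 38.5%) and 3 did not pass the test. The median log2 fold change was -0.39 against -0.01 over all genes. PEX2, a membrane component of the import machinery, was lowered from 44.7 ± 0.46 to 18.7 ± 2.04 CPM (SD, n = 3 each). PEX14, the docking protein, rose with a log2 fold change of 0.55 (standard error 0.11), and PEX26 with 0.37 (standard error 0.10). PEX5, the receptor that carries catalase into peroxisomes, was at 44.7 ± 0.94 CPM in siControl and 44.1 ± 3.24 in siKMT9α (adjusted p = 0.713, edgeR). PEX5 was named for its role after its values had been seen.

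The peroxiredoxins with higher levels in siControl cells were PRDX1 and PRDX5, and the order shifted in siKMT9α. Per kilobase of transcript, PRDX1 had 691.9 ± 8.37 CPM in siControl, PRDX5 421.2 ± 16.6, PRDX6 254.5 ± 2.09, PRDX4 187.8 ± 7.41 and PRDX3 167.4 ± 6.53 (SD, n = 3 each), and the samples of no 2 neighbours in that order overlapped. SOD1 followed with 130.6 ± 2.31, SOD2 with 61.4 ± 2.93 and CAT with 13.4 ± 0.33 CPM per kilobase. In siKMT9α, PRDX1 still led with 639.7 ± 10.9, and PRDX4 with 243.4 ± 15.3, PRDX6 with 231.1 ± 14.2 and PRDX5 with 227.6 ± 20.1 CPM per kilobase overlapped, so their order was not resolved. PRDX3 at 156.7 ± 5.46, SOD2 at 102.8 ± 3.97, SOD1 at 85.4 ± 4.09 and CAT at 5.23 ± 0.29 CPM per kilobase came below them.

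PRDX1, the most abundant cytosolic peroxiredoxin of these cells per length (NM_181696, chr1:45976707-45987610, minus strand), was at 838.3, 830.0 and 818.4 CPM in siControl and 770.0, 777.3 and 752.0 CPM in siKMT9α. The groups did not overlap, but they lay close, the log2 fold change being -0.11 with a standard error of 0.05 and an edgeR adjusted p of 0.0303. The call was lost with any 1 sample left out (adjusted p from 0.0521 to 0.127), with RLE in place of TMM factors (0.0569) and with no filter on low counts (0.0684), and the direction turned with GC and length offsets (log2 fold change 0.08, adjusted p = 0.087). Its span overlaps that of MMACHC, and whether the counting used the strand is not given in the sources used here. The 4 listed transcripts of PRDX1 gave log2 fold changes from -0.16 to -0.11 on largely shared reads.

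PRDX6, which is reset by glutathione rather than thioredoxin (NM_004905, chr1:173446486-173457946, plus strand), was at 419.7, 422.0 and 426.5 CPM in siControl and 389.8, 403.9 and 358.0 CPM in siKMT9α. Each siKMT9α sample was lower than all siControl samples, the third replicate most so. This came to -0.14 on the log2 scale, with a standard error of 0.05 and an edgeR adjusted p of 0.0169. It did not pass without siControl replicate 2 (adjusted p = 0.0552), siControl replicate 3 (0.0961) or siKMT9α replicate 3 (0.0814), and with GC and length offsets it was 0.02 (adjusted p = 0.719). PRDX2, the other cytosolic member, is listed as NM_181738 (chr19:12911427-12912694) and NM_005809 (chr19:12907634-12912694), both on the minus strand. Neither transcript had more than 3 counts in any sample, and PRDX2 was not tested. Whether these low counts reflect its expression or the counting of its reads was not tested.

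The mitochondrial pair did not move together. PRDX3 (NM_006793, chr10:120927215-120938345, minus strand) was at 261.8, 275.5 and 255.4 CPM in siControl and 241.1, 257.1 and 243.6 CPM in siKMT9α. The groups overlapped, and the log2 fold change of -0.10 (standard error 0.05) had an adjusted p of 0.0798 (edgeR). It passed as lower with scaling by library size alone (-0.20, adjusted p = 0.000973) and as higher with GC and length offsets (0.13, adjusted p = 0.00962), so no direction is given for PRDX3.

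PRDX5 (NM_012094, chr11:64085560-64089295, plus strand) was at 360.4, 389.5 and 379.8 CPM in siControl and at 214.9, 212.8 and 182.8 CPM in siKMT9α. All siKMT9α samples lay far below the siControl samples, with the third replicate lowest. The fall from 376.6 ± 14.8 to 203.5 ± 18 CPM (SD, n = 3 each) gave a log2 fold change of -0.89 with a standard error of 0.06 and an edgeR adjusted p of 5.22e-11, and of -0.58 with GC and length offsets. Its 3 listed transcripts gave -0.89, -0.89 and -0.86, on shared reads.

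PRDX5 begins 526 bases from TRMT112 (chr11:64084165-64085033, minus strand), and the 2 genes are read away from each other. Both were lower in siKMT9α, but not by the same factor. Per kilobase, the ratio of PRDX5 to TRMT112 was 1.44, 1.37 and 1.36 in siControl and 0.983, 0.959 and 0.992 in siKMT9α, so PRDX5 was the higher of the pair in all 3 siControl samples and the lower in all 3 siKMT9α samples (two-sided exact permutation p = 0.1, the smallest possible). With fold changes fitted with GC and length offsets, the siKMT9α ratio was 1.09 against 1.39 in siControl, so that PRDX5 stayed the higher of the pair. The span of TRMT112 overlaps that of ESRRA.

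PRDX4, the endoplasmic reticulum member, which works beside oxidative protein folding (NM_006406, chrX:23685645-23704514, plus strand), was at 176.7, 171.4 and 163.3 CPM in siControl and at 207.2, 221.0 and 234.9 CPM in siKMT9α. Among the 5 peroxiredoxins tested, it was the only one for which all siKMT9α samples lay above all siControl samples. Mean levels were 170.5 ± 6.73 and 221.0 ± 13.9 CPM (SD, n = 3 each). PRDX4 rose by 0.38 on the log2 scale, with a standard error of 0.05 and an edgeR adjusted p of 2.78e-06.

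**Figure D2:**
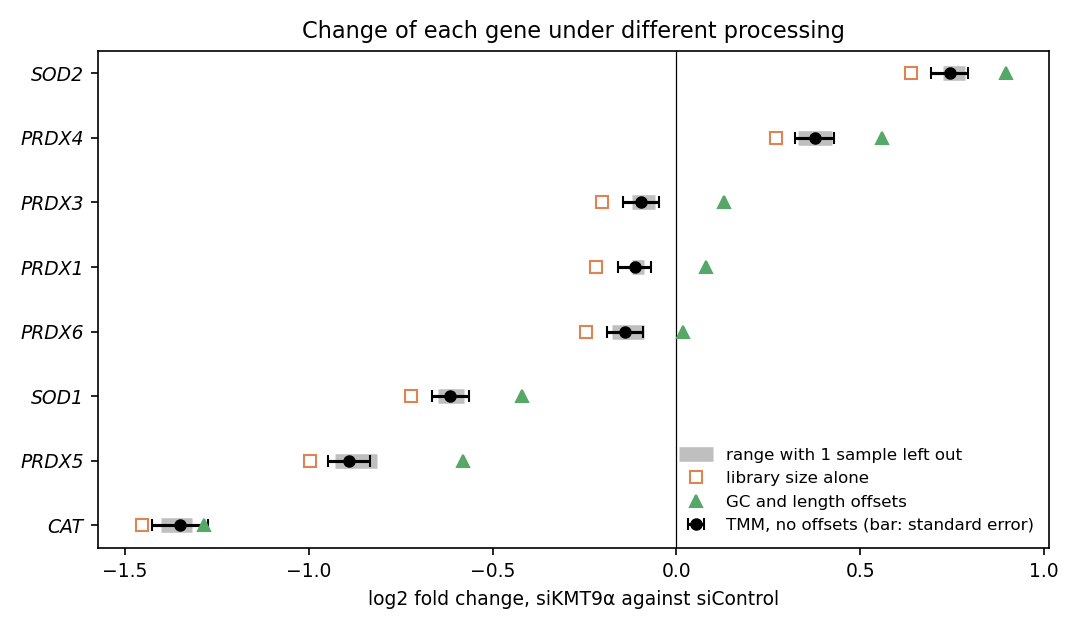
Log2 fold change of each tested gene, siKMT9α against siControl, with TMM scaling (black, bars are the standard error), with library size alone (open squares), with GC and length offsets (triangles), and the range with 1 sample left out at a time (grey). CAT, PRDX5, SOD1, PRDX4 and SOD2 stay on 1 side of 0 under these settings, while PRDX1, PRDX3 and PRDX6 lie within 0.14 of 0 with TMM scaling and cross it with GC and length offsets.

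The make-up of the peroxiredoxin pool as counted here, in which PRDX2 was near 0, differed between the groups. Per length, PRDX5 went from 24.4% ± 0.83 of the 6 peroxiredoxins to 15.2% ± 1.06, and PRDX4 from 10.9% ± 0.41 to 16.3% ± 1.29 (SD, n = 3 each). The share of PRDX1 was 40.2% ± 0.56 and 42.7% ± 0.40, that of PRDX3 9.72% ± 0.26 and 10.5% ± 0.23, and that of PRDX6, whose groups overlapped, 14.8% ± 0.25 and 15.4% ± 0.58. The ratio of PRDX4 to PRDX5 was 0.483, 0.433 and 0.423 in siControl and 0.949, 1.02 and 1.27 in siKMT9α, above 1 in 2 of the 3 siKMT9α samples, and the siKMT9α ratio was 0.982 with GC and length offsets. Summed over the 6 genes, the level was 1723 ± 20.6 CPM per kilobase in siControl and 1499 ± 37.7 in siKMT9α (SD, n = 3 each, two-sided exact permutation p = 0.1, the smallest possible). With GC and length offsets the siKMT9α sum was 1731 CPM per kilobase, so no direction is given for the sum, while the shares were 16.3% for PRDX5 and 15.97% for PRDX4.

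**Figure D3:**
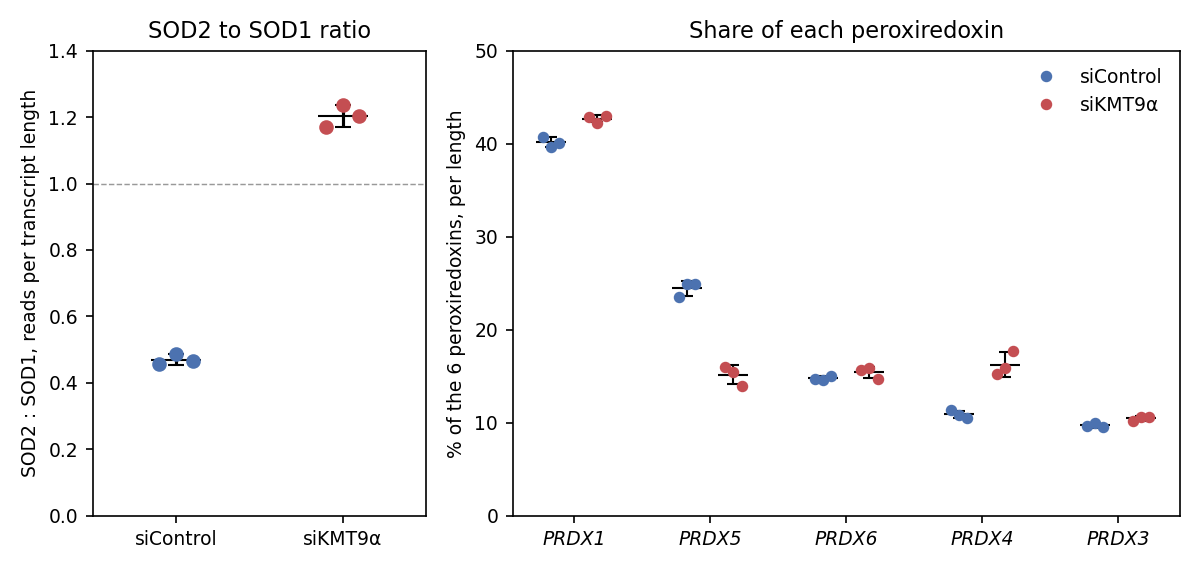
Left, the ratio of SOD2 to SOD1 in reads per transcript length in each sample, with equality dashed. Right, the percent of the summed level per length of the 6 peroxiredoxins held by each of 5 (PRDX2 was near 0 counts), with points for samples and black bars for mean and SD (n = 3 each). The ratio is 0.456 to 0.488 in siControl and 1.17 to 1.24 in siKMT9α, and PRDX5 gives up share while PRDX4 gains it.

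The thioredoxin system resets most peroxiredoxins, and 10 of its 11 listed genes were tested. Of these, 2 rose (20%, against 37.1% of all genes tested), 6 fell (60%, against 38.5%) and 2 did not pass. TXN, the cytosolic thioredoxin that resets peroxiredoxins of the cytosol, was at 248.9, 226.8 and 226.0 CPM in siControl and 662.7, 700.7 and 665.5 CPM in siKMT9α. It rose against the direction of most of its list, by 1.53 on the log2 scale with a standard error of 0.05 and an edgeR adjusted p of 2.85e-15. TXNIP, the protein that binds and inhibits thioredoxin, went from 355.4 ± 7.97 down to 59.5 ± 4.42 CPM (SD, n = 3 each), which is -2.57 on the log2 scale with an edgeR adjusted p of 8.48e-18. NNT, which makes mitochondrial NADPH, rose with a log2 fold change of 0.56. TXN2, the mitochondrial thioredoxin that resets PRDX3, was at 53.5 ± 1.86 CPM in siControl and 53.0 ± 4.39 in siKMT9α (edgeR adjusted p of 0.785, although it passed as higher by 0.24 with GC and length offsets), and was named after its values had been seen.

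TXNRD2, the mitochondrial thioredoxin reductase, fell from 56.2 ± 3.41 to 22.0 ± 1.49 CPM (SD, n = 3 each), and its span overlaps another gene. TXNRD1, the cytosolic thioredoxin reductase, fell from 3648 ± 139 to 2788 ± 7.96 CPM (log2 fold change -0.39, adjusted p = 8.71e-07, edgeR), and SRXN1, the sulfiredoxin that repairs overoxidized peroxiredoxins, from 164.5 ± 3.33 to 127.7 ± 3.36 CPM (-0.37, adjusted p = 7.80e-07, edgeR). TXNRD1, whose span overlaps that of EID3, and SRXN1 were named for their roles after their values had been seen.

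Glutathione peroxidases remove the same peroxides with glutathione. Of 8 listed genes 5 were tested, and 1 rose (20%, against 37.1% of all genes tested), 3 fell (60%, against 38.5%) and 1 did not pass. With GC and length offsets, GPX1 passed as higher (0.43, adjusted p = 2.90e-09, edgeR). GPX2 lost its fall with them (0.06, adjusted p = 0.341, edgeR), while GPX3, GPX4 and GPX8 kept their calls. GPX8, a peroxidase of the endoplasmic reticulum like PRDX4, fell from 252.9 ± 21.4 to 85.7 ± 5.59 CPM (SD, n = 3 each, log2 fold change -1.56), with a span that overlaps CDC20B, and GPX3, the secreted form, fell from 9.74 ± 0.76 to 2.32 ± 0.45 CPM. GPX4, which reduces lipid peroxides, rose from 83.0 ± 6.94 to 97.8 ± 4.30 CPM (log2 fold change 0.24, edgeR adjusted p = 0.0014), a call lost with library size alone (0.13, adjusted p = 0.0575) and larger with GC and length offsets (0.57).

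All 9 listed genes for making and recycling glutathione were tested. Of these, 1 rose (11.1%, against 37.1% of all genes tested), 7 fell (77.8%, against 38.5%) and 1 did not pass. The median log2 fold change was -0.50, against -0.01 over all genes tested. Once GC and length were offset, GSS (-0.03, adjusted p = 0.635, edgeR) and GLRX3 (-0.03, adjusted p = 0.495, edgeR) lost their falls. GLRX5 then passed as higher (0.23, adjusted p = 0.000515, edgeR), and the other genes of the list kept their calls. GSTP1, the gene at the median, moved from -0.50 to -0.19 and still passed as lower. The 2 subunits of glutamate-cysteine ligase, which catalyses the limiting step, moved apart. GCLC, the catalytic subunit, rose from 111.6 ± 4.29 to 141.5 ± 4.76 CPM, and GCLM, the modifier subunit, fell from 176.8 ± 7.71 to 74.2 ± 4.33 CPM (SD, n = 3 each). GLRX, glutaredoxin, fell from 240.9 ± 11.0 to 88.0 ± 2.79 CPM.

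Superoxide dismutases need metal, and 7 of 8 copper and manganese genes were tested. Of these, 2 rose (28.6%, against 37.1% of all genes tested), 3 fell (42.9%, against 38.5%) and 2 did not pass. CCS, the chaperone that loads copper into SOD1, was at 11.7 ± 1.15 CPM in siControl and 8.37 ± 0.75 in siKMT9α, and its log2 fold change of -0.49 did not pass with GC and length offsets (-0.16, adjusted p = 0.147). SLC11A2, a transporter of iron and manganese, rose from 82.8 ± 4.11 to 193.7 ± 7.08 CPM (SD, n = 3 each), and SLC39A14, an importer of zinc, iron and manganese, from 430.4 ± 27.2 to 596.3 ± 28.5 CPM (log2 fold change 0.47, or 0.29 with GC and length offsets). SLC31A2, a copper transporter, fell from 17.02 ± 0.68 to 9.69 ± 1.68 CPM.

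Enzymes that produce superoxide or peroxide were read as a further list. Of its 28 genes, 26 were matched in the table and 12 passed the filter on low counts. Among those 12, 1 rose (8.33%, against 37.1% of all genes tested), 6 fell (50%, against 38.5%) and 5 did not pass the test. With GC and length offsets, CYBA lost its fall (-0.11, adjusted p = 0.0587, edgeR). XDH (-0.46, adjusted p = 0.000394, edgeR) and MAOA (-0.34, adjusted p = 0.0170, edgeR) then passed as lower. NOXO1 then passed as higher (0.53, adjusted p = 0.0144, edgeR). SMOX, spermine oxidase, rose from 125.9 ± 5.08 to 308.7 ± 17.5 CPM (SD, n = 3 each, log2 fold change 1.29). ACOX2, a peroxisomal oxidase of branched fatty acid chains that gives off hydrogen peroxide, fell from 9.82 ± 0.37 to 0.90 ± 0.33 CPM (log2 fold change -3.39, standard error 0.18).

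All 19 listed transcription regulators of these enzymes were tested. Of these, 9 rose (47.4%, against 37.1% of all genes tested), 7 fell (36.8%, against 38.5%) and 3 did not pass. The median log2 fold change was 0.16, which is the value of SP1. With GC and length offsets, SP1 turned to -0.17 (adjusted p = 0.00229, edgeR). KEAP1, FOXO3 and HSF1 lost their calls with the offsets, and MAFF and RELA passed as higher. BACH1, a repressor at antioxidant response elements, fell from 80.4 ± 1.56 to 26.5 ± 3.22 CPM (SD, n = 3 each, log2 fold change -1.59), and FOXO1, a FOXO factor known to act on CAT and SOD2, from 32.3 ± 3.47 to 11.1 ± 0.53 CPM. RELB, of the NF-kB family that acts on SOD2, rose from 21.3 ± 2.51 to 39.0 ± 0.91 CPM (log2 fold change 0.87), and PPARGC1B, a coactivator of mitochondrial genes, from 9.85 ± 0.84 to 22.8 ± 1.80 CPM (1.21, or 0.80 with GC and length offsets). NFE2L2, the gene of NRF2, which acts at antioxidant response elements and is known to be active in A549 cells, fell from 283.6 ± 3.59 to 173.6 ± 8.41 CPM (log2 fold change -0.71, edgeR adjusted p of 9.79e-11). NFE2L2 was named after its values had been seen. Over all 7 lists, 78 of 97 genes matched in the table were tested, and 19 rose (24.4%), 42 fell (53.8%) and 17 did not pass, against 37.1% and 38.5% of all genes tested.

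**Figure D4:**
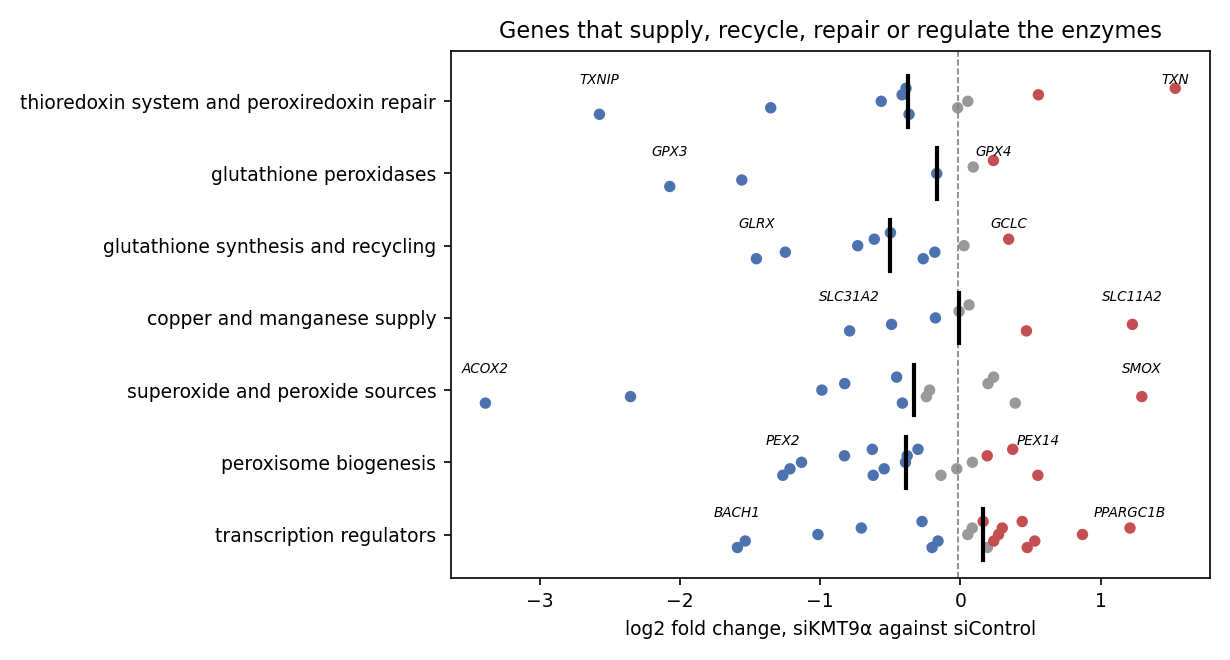
Log2 fold change of the 78 tested genes of the 7 lists, siKMT9α against siControl, with red for genes higher and blue for genes lower at an adjusted p under 0.05, grey for the rest, a black bar at each list's median, and a dashed line at the median of all genes tested (-0.01), the gene furthest up and down in each list being named. Values are without GC and length offsets. The median of 6 lists is at or below -0.01 and that of the transcription regulators is 0.16, and vertical spread within a list carries no value.

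NRF2 acts at the antioxidant response element, whose core was searched as TGACNNNGC on both strands in the 300 bases from 250 before to 50 after each member's transcript start in GRCh37. It was held by 2 of the 10 members, PRDX1 and PRDX4, and by 14.4% of 13639 promoters of genes tested (1967). The windows of PRDX1 (chr1:45987561-45987860, minus strand) and PRDX4 (chrX:23685395-23685694, plus strand) are shown because they hold the core, in capitals and in reverse orientation, beginning at -87 and 36 from the start. That of PRDX5 (chr11:64085310-64085609, plus strand), without the core, is shown because it lies between PRDX5 and TRMT112.
PRDX1 promoter: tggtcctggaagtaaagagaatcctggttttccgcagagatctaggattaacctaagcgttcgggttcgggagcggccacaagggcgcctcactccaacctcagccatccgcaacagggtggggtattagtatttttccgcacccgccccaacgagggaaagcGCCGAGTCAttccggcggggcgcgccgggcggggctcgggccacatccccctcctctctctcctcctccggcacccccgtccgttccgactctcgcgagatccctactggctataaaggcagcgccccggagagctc
PRDX4 promoter: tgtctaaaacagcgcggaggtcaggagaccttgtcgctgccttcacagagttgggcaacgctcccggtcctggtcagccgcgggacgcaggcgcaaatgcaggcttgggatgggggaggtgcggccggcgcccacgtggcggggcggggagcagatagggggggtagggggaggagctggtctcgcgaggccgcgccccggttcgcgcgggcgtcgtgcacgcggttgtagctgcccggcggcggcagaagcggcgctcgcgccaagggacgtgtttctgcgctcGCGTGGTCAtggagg
PRDX5 promoter: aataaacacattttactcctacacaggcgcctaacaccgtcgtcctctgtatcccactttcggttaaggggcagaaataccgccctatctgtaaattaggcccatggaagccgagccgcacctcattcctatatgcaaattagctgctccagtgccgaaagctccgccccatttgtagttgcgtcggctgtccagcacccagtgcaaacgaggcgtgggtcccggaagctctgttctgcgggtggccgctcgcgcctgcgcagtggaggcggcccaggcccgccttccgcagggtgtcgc
Of these 3 genes, PRDX4 rose, PRDX5 fell and PRDX1 lay near 0. A match is a description of the letters and was not tested as a site.

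An siRNA can also lower other transcripts through its seed. The 7-mer complementary to bases 2 to 8 of the guide strand of siKMT9α#1 is ACATTCA. It was held by 0 of the 3′ UTRs of the listed member transcripts that could be placed (62 to 944 bases). Among 12814 annotated 3′ UTRs of genes tested, 11.9% held it. The member UTRs ended at the listed transcript end, the others at the annotated end, and lengths were not matched. A longer UTR can hold a 7-mer more readily, so these shares cannot be compared directly. For SOD2, the listed transcripts have 3′ UTRs of 770 and 201 bases, and longer annotated forms were not searched.

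By profile over the 6 samples, the genes nearest to SOD2 included, among 13085 genes with a mean of at least 1 CPM, RAB5C, TMEM51, MYL12A and ATP5SL, with Euclidean distances of 0.044 to 0.072 between log2 CPM values centred on each gene's mean. Their log2 fold changes were 0.75, 0.70, 0.77 and 0.78. The 6 samples fall into 2 groups, so this likeness mainly measures a difference of the same size.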

How the data were processed

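RNA-Seq of 3 siControl and 3 siKMT9α samples was analysed. Per the study's methods, the authors aligned reads to hg19 with STAR and counted them with HOMER, and the rows of the deposited table carry RefSeq transcript identifiers. The authors deposited estimated counts that are not normalized (36.43% not whole, all in steps of 0.5). They also deposited each transcript's length in bases, used for levels per kilobase, and from their own edgeR comparison a fold change (ratio) with its p-value, raw and adjusted, which were not used. Strand use and counting options are not given in the sources used here.

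Of 38767 rows, 1182 held no symbol and counts. The other 37585 transcripts of 23180 symbols were reduced to 1 per symbol, the one with the largest summed count, and rounded to whole numbers. These entered edgeR 4.0.16 under R 4.3.3 (TMM, filterByExpr, quasi-likelihood F test, two-sided, Benjamini-Hochberg). Single values also got an exact permutation test, two-sided. Samples held 13740097 to 19832395.5 counts, with a biological coefficient of variation of 4.47%. Single counts limit the precision of the scarce genes. The labels call the samples biological replicates, without saying that they were separate cultures, so p-values measure the spread between these samples. No samples within a group were alike within sampling noise (chi-square per gene of 1.36 to 5.25).

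Alternatives used RLE factors, library size alone, other filters, a likelihood ratio test, DESeq2 1.42.0, a replicate block, offsets for GC content and length, and each sample left out. All 10 members, every SOD2 transcript and the 2 genes of each list with the largest rise and fall at an adjusted p under 0.05 were to be named. Some genes that this rule takes in are not reported here. The members and lists were chosen with earlier results of these data known. Promoters and 3′ UTRs came from GRCh37 and the GENCODE annotation lifted to it.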

Additional observations from a re-analysis of the deposited data

How the results depend on the processing

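SOD1, SOD2, CAT, PRDX4 and PRDX5 kept direction and stayed at an adjusted p under 0.05 in all 16 alternatives. Over 38 single genes and SOD2 transcripts, 575 of 597 recomputed values kept direction and side of the threshold, 15 lost the call, 1 gained it and 6 changed sign. Most of the 38 were taken as the largest changes of their list at an adjusted p under 0.05, so few of them could lose the call. The 3 SOD2 transcripts share reads and were not fitted with the offsets. List genes outside that choice, such as SP1, GPX1, XDH and PEX16, changed sign or call with the offsets. The 6 changes of sign among the 597 values came with GC and length offsets, alone or with a replicate block, where PRDX1 was 0.0815 and 0.0819, PRDX3 0.1293 and 0.1294, and PRDX6 0.019 and 0.0179, and where the number of members lower at an adjusted p under 0.05 went from 5 to 3 in both fits. With 1 sample left out, that number was 3 to 4 (3 without siControl replicate 2, siControl replicate 3 or siKMT9α replicate 3). Samples of the 2 groups share replicate numbers, but same-numbered samples did not deviate together (correlations of -0.08, 0.02 and -0.08 over 13877 genes), and no sample correlated best with its own number. A replicate block alone left 4 members lower and 2 higher (PRDX1 had a log2 fold change of -0.11, adjusted p = 0.0727, edgeR), with 10229 genes called against 10492. At the study's threshold, the block gave 2342 genes against 3357. Members higher at that threshold went from 1 to 2 with no filter on low counts, DESeq2, the likelihood ratio test, the offsets, and the block with offsets (PRDX4), and members lower went from 3 to 2 with the replicate block and without siKMT9α replicate 2 (SOD1). All genes called at that threshold numbered 6070 with no filter, 5962 with the likelihood ratio test, 5869 with the block and offsets, and 2326 to 4085 with 1 sample left out. Library size alone shifted the median of all genes by -0.105 and gave 4359 higher and 6212 lower, against 5150 and 5342, and at the study's threshold 1516 higher and 1862 lower, against 1878 and 1479. By a setting chosen after seeing the data, offset fold changes applied to the siControl means gave a peroxiredoxin sum of 1731 CPM per kilobase in siKMT9α, against 1499 without offsets and 1723 in siControl, which turned its direction. The causes of these changes were not tested. Genes of the 7 lists numbered 16 to 24 higher and 37 to 45 lower, against 19 and 42 in the main fit. With GC and length offsets they were 24 higher and 38 lower. A gene with at most 3 counts in every sample, such as SOD3 or PRDX2, could not be compared with these counts.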
